A study of Mus musculus with 10 samples.

Results

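The unfolded protein response of 4T1 mouse mammary tumors was followed through 47 genes of the endoplasmic reticulum (ER), out of 17864 genes counted in each tumor. The genes are the sensors, transcription factors, chaperones and degradation genes of a hand-written list of 48 names. Of these, Vimp is the older symbol of Selenos, so that the names stand for 47 genes. The genes were selected by name, with the fold changes of sgTaz over sgCon in these same tumors known, so the differences between the groups are given for them as a description and not as a test. All 47 genes were in the table and passed the filter on low counts, and 46 of them were above the filter's level of 0.626 CPM (counts scaled to the normalized library size) in every one of the 10 tumors. The exception was Bhlha15, which passed through the sgCon tumors.

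Whole tumors of 4T1 cells, a mammary carcinoma line of BALB/c mice, were sequenced. The sgCon group holds 5 tumors of cells with Cas9 and a control guide RNA, and the sgTaz group holds 5 tumors of cells with Cas9 and a guide RNA against Taz, whose gene symbol is Wwtr1. Per the methods, the mice were females of 6 to 8 weeks and received the cells in a mammary fat pad. The study used BALB/c and immunodeficient SCID mice, and the labels do not say which strain bore these tumors. The labels give the cell type as tumor cell, but markers of immune and stromal cells were counted in the tumors as well. The cells were edited before injection, so that host cells in the tumor carry no edit. Whether the edited cells were a pool or a clone is not given in the sources used here, and the labels do not give the day of harvest. Total counts ran from 14753922 to 19595821 for sgCon and from 12185383 to 18395558 for sgTaz, and 3 counts are at most 2.46e-05% of a tumor's total. Nothing in the labels says more of the replicates than their numbers, which were read as separate tumors. Wwtr1 itself was at 192, 181, 115, 171 and 156 CPM in the sgCon tumors and at 86.6, 104, 110, 139 and 102 CPM in the sgTaz tumors, a log2 fold change of -0.59 (standard error 0.15) with overlapping groups. The epithelial markers of the tumor cells were present in all tumors, with a summed level of 2085 to 4881 CPM in sgCon and 1593 to 3795 CPM in sgTaz tumors.

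The unfolded protein response is the reaction of a cell to unfolded protein in its ER. IRE1 (Ern1), PERK (Eif2ak3) and ATF6 sense the load in the ER membrane. They act through spliced Xbp1, through translation of Atf4 and through the cleaved form of ATF6, and these factors switch on chaperones, protein export for degradation and, in longer stress, Ddit3 (CHOP). Much of this control is by splicing, translation and cleavage, which gene counts do not measure. Cells that secrete much protein, and plasma cells above all, keep the IRE1 arm and an enlarged ER without stress. In whole tumors, fewer cells of a type and less RNA per cell cannot be told apart.

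The best known sequence of this response in promoters is the ER stress response element (ERSE), which is CCAAT, 9 bases of any kind and CCACG, and which ATF6 binds together with the factor NF-Y. Promoters of 300 bases, from 250 bases before the annotated start, were taken from RefSeq (GRCm38.p6) and searched on both strands. A promoter was found for 40 of the 47 genes. ERSE was in 9 of these 40 promoters (22.5%) and in 37 of all 27025 promoters (0.137%). The 9 genes are Calr, Canx, Creld2, Derl3, Dnajc3, Hsp90b1, Hspa5, Pdia6 and Syvn1. The sites of 5 of them are shown with 5 bases on each side, because they stand before genes whose fold changes below differ in sign. Each is written 5′ to 3′ on the strand of its gene, with the 2 parts of the element in capitals, and a site on the other strand reads CGTGG, 9 bases and ATTGG.
Hspa5, chr2:34772020-34772048, plus strand: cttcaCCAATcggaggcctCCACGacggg
Calr, chr8:84847070-84847098, minus strand: caacgCGTGGtcgaccctcATTGGcccat
Creld2, chr15:88819515-88819543, plus strand: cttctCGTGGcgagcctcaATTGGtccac
Derl3, chr10:75893237-75893265, plus strand: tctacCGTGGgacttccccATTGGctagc
Syvn1, chr19:6046527-6046555, plus strand: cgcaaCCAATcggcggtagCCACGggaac
The element of Hspa5 began 65 bases before the annotated start, that of Syvn1 44, that of Creld2 126, that of Derl3 156 and that of Calr 162 bases before it. Hsp90b1 was the promoter with 2 such elements, in opposite orientation, and both are shown in the stretch that holds them.
Hsp90b1, chr10:86705528-86705661, minus strand: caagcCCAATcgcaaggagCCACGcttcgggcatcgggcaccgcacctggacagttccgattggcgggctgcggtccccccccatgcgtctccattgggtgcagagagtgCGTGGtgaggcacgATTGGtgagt

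A shorter form, ERSE-II (ATTGG, 1 base of any kind and CCACG), was in the promoters of Herpud1 and Dnajb11, 2 of 40 (5%) against 0.0444% of all promoters. The C/EBP-ATF element TGATGNAA, through which ATF4 acts on amino acid genes, was in 5 of 40 (12.5%), namely Asns, Cdnf, Chac1, Herpud1 and Trib3, against 4.51% of all promoters. The element TGACGTGG (UPRE) was in 0 of the 40 and in 0.714% of all promoters. In the promoter of Herpud1, the ERSE-II site (-52 to -42 from the annotated start) and the C/EBP-ATF site (-112 to -105) do not overlap. The sites of Herpud1, Asns and Chac1 are shown because their genes differ in direction below.
Herpud1, chr8:94386372-94386392, plus strand: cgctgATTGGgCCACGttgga
Asns, chr6:7693220-7693237, minus strand: ccacaTGATGaAActtcc
Chac1, chr2:119351044-119351061, plus strand: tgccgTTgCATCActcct

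For the 47 genes as a list, the median log2 fold change of sgTaz over sgCon tumors was -0.024, with 23 genes above 0 and 24 below it, beside a median of -0.019 over all 14816 genes tested. With edgeR's quasi-likelihood test, 0 of the 47 genes had an adjusted p below 0.05, where 0.00675% of all genes had. At an unadjusted p below 0.05 stood 16 members (21.8% of all genes), 6 of them higher in sgTaz tumors (9.86%) and 10 lower (11.9%). DESeq2, the tool of the study, called 9 members (6.75% of all genes), 3 higher (3.28%) and 6 lower (3.47%). The tool limma-voom with quality weights called 10 (10.4% of all genes), 2 higher (4.63%) and 8 lower (5.8%). The calls of both tools shared 8 genes. The groups did not overlap for 6 members (4.57% of all genes). Of these, 2 were higher, Hyou1 and Asns (2.44%), and 4 were lower, Bhlha15, Creld2, Ddit3 and Syvn1 (2.13%). The roles differed in their medians, from 0.18 for the 11 chaperones to -0.17 for the 9 degradation genes and -0.41 for the 4 transcription factors.

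**Figure D1:**
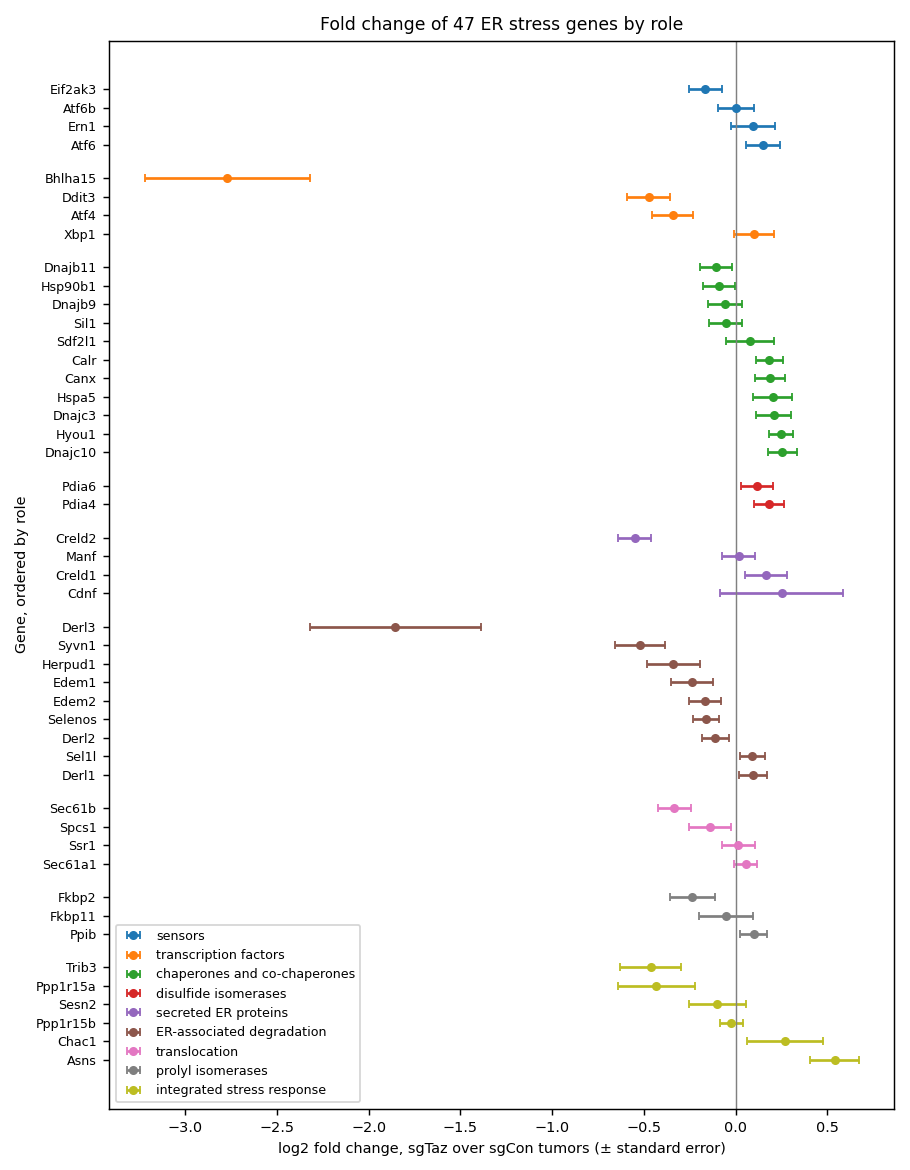
Log2 fold change of each of the 47 genes between sgTaz and sgCon tumors (x axis, points with standard errors from edgeR, 5 tumors a group), ordered by role (y axis, one color a role). Bhlha15 (-2.77) and Derl3 (-1.86) stand far to the left, while all other genes lie between -0.55 (Creld2) and 0.54 (Asns).

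The levels of the genes spread widely. Per kilobase of exon, Hspa5 was highest with a mean of 406 CPM per kilobase in sgCon tumors, followed by Hsp90b1 (343), Calr (266), Canx (155), Pdia6 (128) and Ppib (100.4). The lowest were Cdnf (0.402), Bhlha15 (0.881), Chac1 (1.73), Sesn2 (2.57) and Derl3 (3.56). Thus the 2 genes with the greatest fold changes were among the 5 of lowest level, and those of the highest level, Hspa5, Hsp90b1, Calr and Canx, had log2 fold changes from -0.092 to 0.20. Summed over the 47 genes, the level was 8242 to 9572 CPM in sgCon and 9359 to 9932 CPM in sgTaz tumors, ranges that overlapped. The mean log2 CPM of the 47 genes, in which Bhlha15 and Derl3 weigh as much as the abundant genes, was 6.18 to 6.28 in sgCon and 6.06 to 6.12 in sgTaz tumors, lower in every sgTaz tumor.

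**Figure D2:**
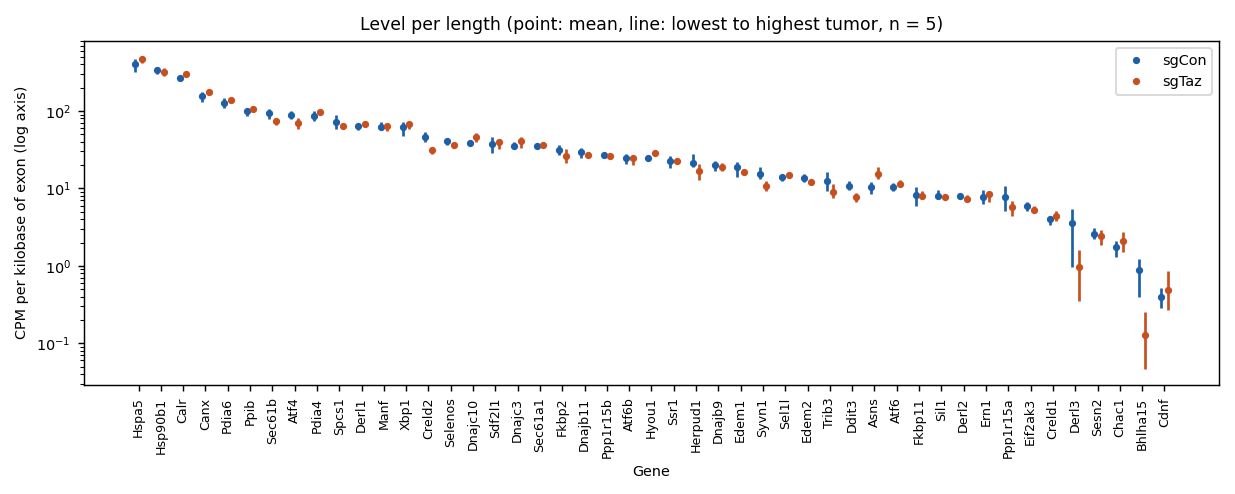
Level of each gene per kilobase of exon (y axis, log scale) in sgCon (blue) and sgTaz (orange) tumors, with genes ordered by their sgCon mean (x axis). Points are means of 5 tumors and lines run from the lowest to the highest tumor. The lines of Hspa5, the highest gene, overlap, and those of Bhlha15 (means 0.881 and 0.126) do not.

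The sensors showed no gene past an unadjusted p of 0.05. Ern1, the endonuclease that splices Xbp1, was at 50.8 to 78.6 CPM in sgCon and 54.9 to 74.5 CPM in sgTaz tumors (log2 fold change 0.093, standard error 0.12). Atf6 was at 84.6 to 109 and 96.2 to 117 CPM (0.15, standard error 0.092), and its relative Atf6b was at a log2 fold change of 0.003 (standard error 0.099). Eif2ak3, the kinase PERK, had the greatest change of the sensors. It was at 39.9, 36.5, 35.1, 30.9 and 35.8 CPM in sgCon tumors and at 29.0, 31.1, 30.6, 32.4 and 35.8 CPM in sgTaz tumors, a log2 fold change of -0.17 (standard error 0.089) with overlapping groups.

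Among the transcription factors, Bhlha15 (MIST1), a factor of secretory cells such as plasma cells and pancreatic acinar cells, had the greatest change of all 47 genes. Its counts were 43, 75, 69, 25 and 49 in the sgCon tumors and 3, 6, 11, 2 and 12 in the sgTaz tumors. These are 2.58, 3.75, 4.30, 1.39 and 3.36 CPM against 0.191, 0.387, 0.589, 0.162 and 0.873 CPM. The groups did not overlap, and the fold of sgTaz over sgCon tumors fitted by edgeR was 0.147 (log2 fold change -2.77, standard error 0.45). The sgCon tumor with the lowest level was replicate 4, and the sgTaz tumor with the highest was replicate 5.

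Ddit3, the factor CHOP of prolonged stress, was at 21.1, 16.2, 20.1, 16.1 and 19.0 CPM in sgCon tumors and at 13.0, 13.8, 13.2, 15.1 and 11.6 CPM in sgTaz tumors. Every sgTaz tumor was below every sgCon tumor (log2 fold change -0.48, standard error 0.12). Ddit3 shares 105 exon bases with another annotated gene of the same name and 68 with Mars on the opposite strand, and reads there cannot be assigned without doubt. Atf4, which activates Ddit3, was at 185, 190, 218, 236 and 206 CPM in sgCon and at 191, 185, 141, 161 and 137 CPM in sgTaz tumors. Below all of the sgCon tumors were 4 sgTaz tumors, of which replicate 2 was at the level of sgCon replicate 1 within rounding (log2 fold change -0.34, standard error 0.11). Xbp1, whose total message and not its spliced form was counted, was at 218, 237, 156, 210 and 196 CPM in sgCon and at 237, 191, 230, 206 and 225 CPM in sgTaz tumors. Its groups overlapped (log2 fold change 0.098, standard error 0.11). After correction for length and GC content of genes, Atf4 was at -0.22 and Xbp1 at 0.22.

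Of the 11 chaperones, 7 had log2 fold changes above 0 and 4 below it. At an unadjusted p below 0.05, 4 were higher (Hyou1, Calr, Canx and Dnajc10, where 9.86% of all genes were), and at the adjusted threshold of edgeR 0 were. Hspa5 (BiP), the main chaperone of the ER and the usual gauge of its stress, was at 1912, 1966, 1352, 1743 and 1604 CPM in sgCon tumors and at 1946, 1746, 2061, 2145 and 1960 CPM in sgTaz tumors. The groups overlapped, with sgCon replicate 3 lowest of all (log2 fold change 0.20, standard error 0.11). Hyou1, which exchanges the nucleotide of BiP, was at 181, 184, 164, 168 and 186 CPM in sgCon and at 217, 196, 220, 210 and 205 CPM in sgTaz tumors. All sgTaz tumors were above all sgCon tumors, by a small fold (log2 fold change 0.25, standard error 0.063).

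Dnajc10, a reductase that works with BiP in degradation, had the greatest change of the chaperones, with 193, 209, 183, 201 and 180 CPM in sgCon and 243, 198, 228, 261 and 224 CPM in sgTaz tumors. Of its sgTaz tumors, 4 were above all sgCon tumors (log2 fold change 0.26, standard error 0.082). Sdf2l1, a partner of BiP that responds strongly to ER stress, was at 31.5, 44.2, 50.4, 45.2 and 35.1 CPM in sgCon and at 48.0, 36.2, 45.4, 42.6 and 45.6 CPM in sgTaz tumors. The sgTaz range lay inside the sgCon range (log2 fold change 0.077, standard error 0.13, and 0.36 after correction for length and GC content of genes). Calr and Canx, which bind sugar chains of folding proteins, were at 716 to 850 and 613 to 818 CPM in sgCon and at 812 to 938 and 783 to 894 CPM in sgTaz tumors. Hsp90b1 (GRP94) was at 1206 to 1469 and 1149 to 1462 CPM (log2 fold change -0.092, standard error 0.087). The remaining co-chaperones, Dnajb9, Dnajb11, Dnajc3 and Sil1, overlapped between groups and had log2 fold changes from -0.11 (Dnajb11) to 0.21 (Dnajc3).

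The isomerases of disulfide bonds were both above 0. Pdia4 was at 237, 202, 177, 200 and 214 CPM in sgCon and at 220, 240, 223, 248 and 237 CPM in sgTaz tumors, with 3 sgTaz tumors above all sgCon tumors (log2 fold change 0.18, standard error 0.081). Pdia6 was at 403 to 549 and 485 to 561 CPM (log2 fold change 0.12, standard error 0.089).

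Creld2, an ER protein that is secreted and is a target of ATF6, was lower in every sgTaz tumor. It was at 55.1, 72.6, 60.8, 59.7 and 64.4 CPM in sgCon tumors and at 44.4, 46.6, 43.1, 37.6 and 41.9 CPM in sgTaz tumors. The groups did not overlap and each varied little, with a coefficient of variation of 10.5% and 7.79% (log2 fold change -0.55, standard error 0.090). After the same correction, this value was -0.36. The other secreted proteins of the ER had smaller fold changes of the other sign. Manf, which is likewise a target of ATF6, differed by a log2 fold change of 0.016 (standard error 0.091), Creld1 of 0.17 (standard error 0.11) and Cdnf, at 0.827 to 2.67 CPM in sgTaz tumors, of 0.25 (standard error 0.33).

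Of the 9 genes of ER-associated degradation, 7 had log2 fold changes below 0, as did 7855 of all 14816 genes. At an unadjusted p below 0.05, 4 were lower (Herpud1, Syvn1, Derl3 and Selenos, where 11.9% of all genes were), and at the adjusted threshold of edgeR 0 were. Derl3, a channel protein of the ER membrane that is abundant in secretory cells, was at 6.67, 7.96, 10.7, 1.94 and 8.29 CPM in sgCon tumors. In sgTaz tumors it was at 0.700, 1.68, 3.21, 1.38 and 2.76 CPM. Of these, 3 lay below all sgCon tumors and 2 above sgCon replicate 4, the lowest sgCon tumor for Bhlha15 as well (log2 fold change -1.86, standard error 0.47). The relatives Derl1 (0.094, standard error 0.078) and Derl2 (-0.11, standard error 0.073) had log2 fold changes nearer to 0, and per kilobase Derl1 was at 64.5 CPM in sgCon tumors against 3.56 CPM for Derl3.

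Syvn1 (HRD1), the ubiquitin ligase of the pathway, was at 63.7, 68.3, 88.0, 63.3 and 92.4 CPM in sgCon and at 58.2, 61.4, 45.9, 45.2 and 51.1 CPM in sgTaz tumors. The groups did not overlap, although the nearest tumors were close (63.3 and 61.4 CPM, log2 fold change -0.52, standard error 0.14), and 91 exon bases are shared with Mrpl49 on the other strand. Sel1l, the partner that Syvn1 needs in the membrane, had the other sign (log2 fold change 0.091, standard error 0.070). Herpud1, a scaffold of this complex, was at 44.7, 50.2, 64.7, 43.6 and 48.1 CPM in sgCon and at 44.2, 35.9, 30.4, 39.6 and 48.6 CPM in sgTaz tumors and overlapped (log2 fold change -0.34, standard error 0.14). Edem1 and Edem2, which mark misfolded glycoproteins, had log2 fold changes of -0.24 (standard error 0.11) and -0.17 (standard error 0.087).

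In translocation, Sec61b, a small subunit of the channel through which new proteins enter the ER, was at 99.6, 110, 123, 135 and 122 CPM in sgCon and at 99.2, 104, 90.6, 84.3 and 90.1 CPM in sgTaz tumors. Of the sgTaz tumors, 4 were below all sgCon tumors (log2 fold change -0.33, standard error 0.092), and after the same correction the value was -0.11. Sec61a1, the large subunit of the same channel, was at a log2 fold change of 0.055 (standard error 0.062). Of the prolyl isomerases, Fkbp2 was at 44.0, 44.1, 53.4, 60.3 and 51.9 CPM in sgCon and at 53.0, 46.0, 39.9, 41.2 and 35.3 CPM in sgTaz tumors (log2 fold change -0.24, standard error 0.12, corrected -0.099). Fkbp11 was at 21.9, 24.8, 16.0, 28.6 and 19.7 CPM against 25.0, 20.15, 21.9, 19.8 and 20.01 CPM (log2 fold change -0.053, standard error 0.15, corrected 0.070). Both pairs of groups overlapped.

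The genes of the integrated stress response, which ATF4 controls downstream of PERK and of amino acid shortage, went both ways. Asns, the synthetase of asparagine, was at 33.0, 31.8, 25.1, 29.4 and 22.9 CPM in sgCon and at 52.2, 36.8, 41.5, 40.5 and 35.9 CPM in sgTaz tumors. All sgTaz tumors were above all sgCon tumors (log2 fold change 0.54, standard error 0.13). Trib3, a pseudokinase induced by ATF4 and CHOP, was at 34.2, 24.9, 19.7, 30.8 and 22.7 CPM in sgCon and at 17.8, 24.5, 18.5, 15.9 and 19.2 CPM in sgTaz tumors (log2 fold change -0.46, standard error 0.16).

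For Trib3, 4 sgTaz tumors were below the whole sgCon group, and replicate 2 lay within it. Chac1, which degrades glutathione, was at 2.94, 3.003, 3.43, 2.66 and 2.12 CPM against 3.31, 3.42, 3.38, 4.53 and 2.47 CPM (log2 fold change 0.27, standard error 0.20, corrected 0.43). Thus Asns, Chac1 and Trib3, which all carry the C/EBP-ATF letters in their promoters, had values of both signs. Ppp1r15a (GADD34), which ends the translational block, was at a log2 fold change of -0.43 (standard error 0.21) with 15.1 to 31.5 CPM in sgCon and 13.0 to 20.2 CPM in sgTaz tumors.

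**Figure D3:**
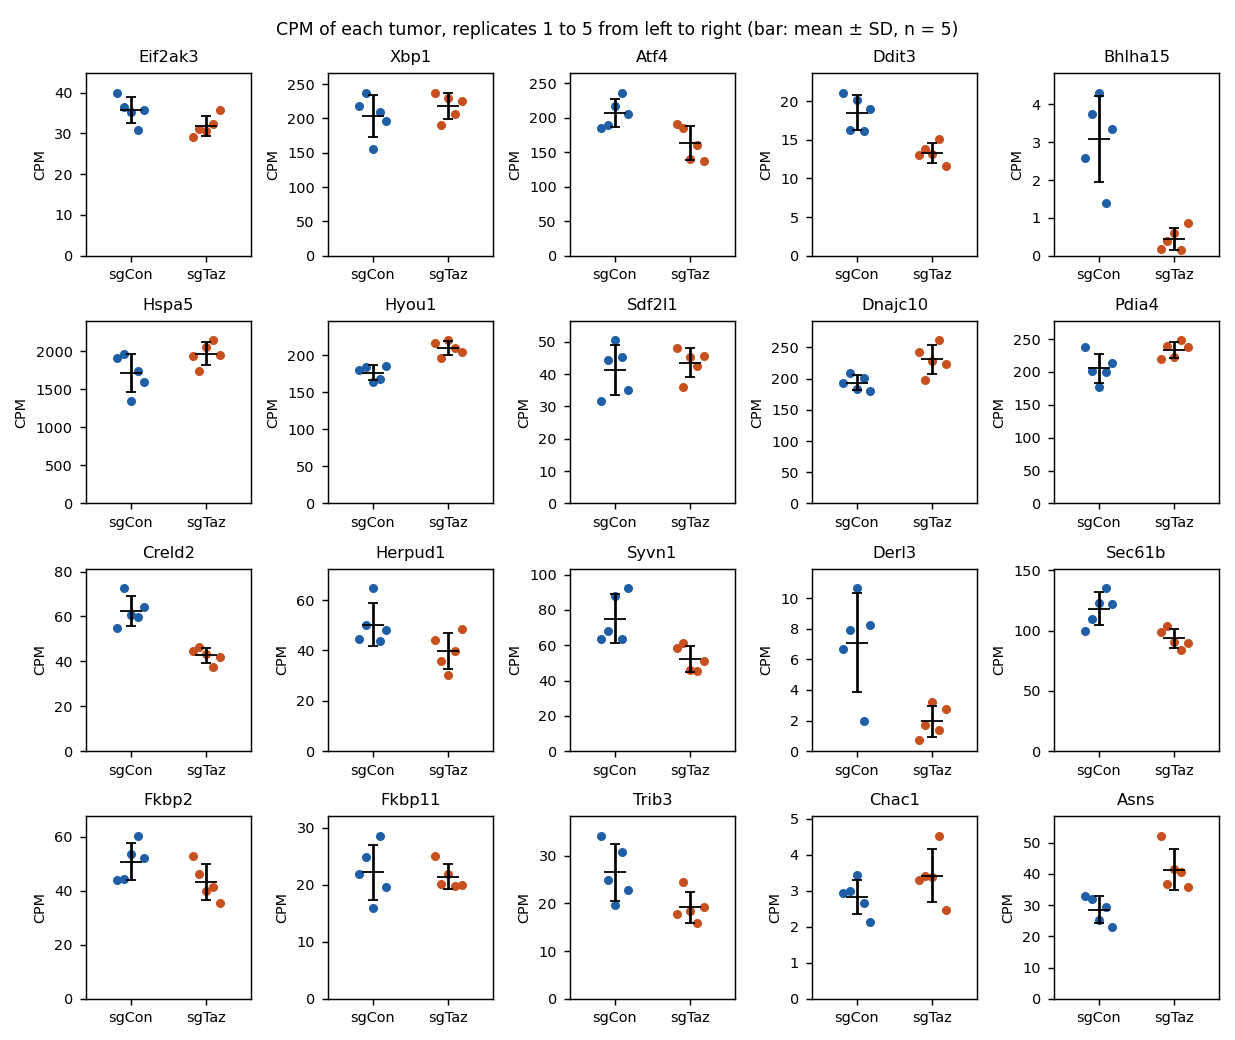
CPM (y axis, from 0) of 20 members in each sgCon (blue) and sgTaz (orange) tumor, replicates 1 to 5 from left to right within a group, with mean and SD as black bars. The groups do not overlap for Ddit3, Bhlha15, Creld2 and Syvn1, which are lower in sgTaz tumors, or for Hyou1 and Asns, which are higher.

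The genes with an ERSE had fold changes of both signs. Of the 9, 5 had log2 fold changes above 0 (Hspa5, Calr, Canx, Pdia6 and Dnajc3) and 4 below it (Hsp90b1, Creld2, Derl3 and Syvn1). Creld2 and Hspa5, both with a single element, were at -0.55 and 0.20.

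The spread of the members between tumors of a group is given without a test. Their median coefficient of variation was 11.2% in sgCon and 8.52% in sgTaz tumors, against 16.5% and 13.5% over all genes tested. Derl3 was the most variable member in sgCon tumors (45.4%) and Bhlha15 in sgTaz tumors (67.3%), while Derl2 (5.60%) and Selenos (3.66%) were the least variable. Single tumors stood out in different directions. In sgCon replicate 3, 17 members had their lowest and 13 their highest level of the group. In sgTaz replicate 2, 15 members were lowest, and in sgTaz replicate 1, 14 were highest.

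**Figure D4:**
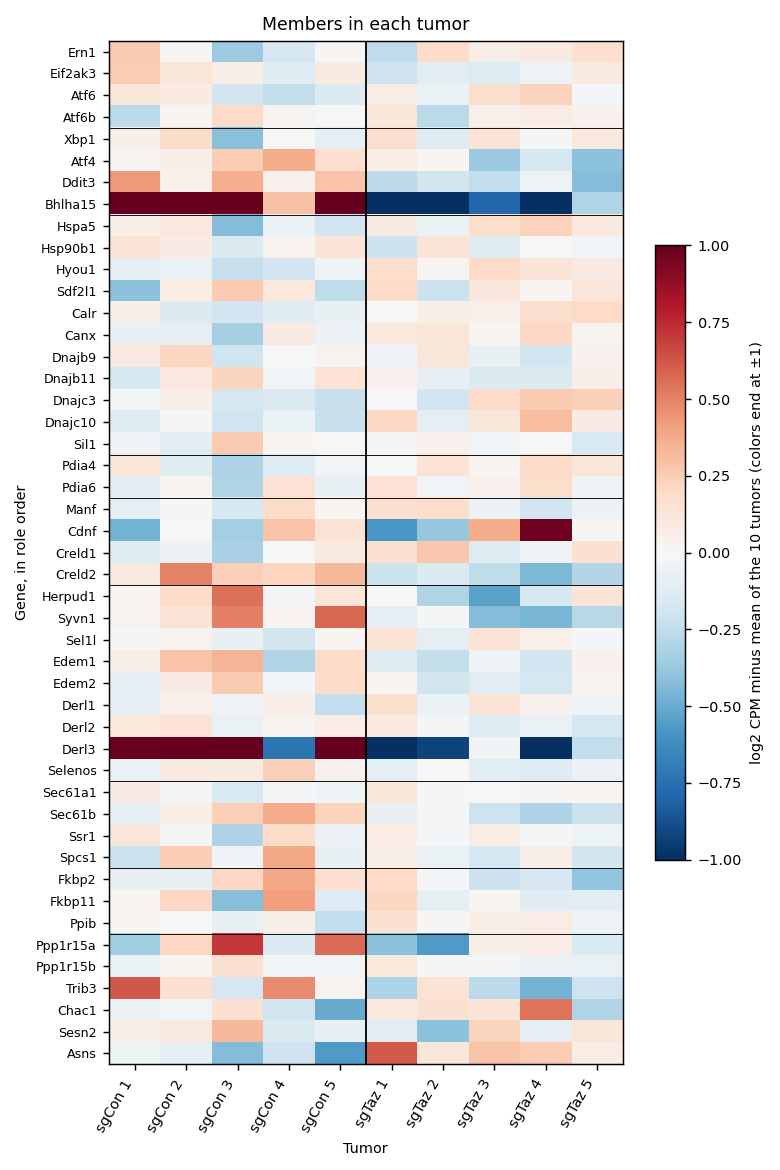
Log2 CPM of the 47 genes (y axis, in role order) in each tumor (x axis) minus the mean of the 10 tumors, in colors that end at ±1. Bhlha15 and Derl3 reach the end of the scale in 4 sgCon tumors and in at least 2 sgTaz tumors, whereas most chaperones stay pale in all 10 tumors.

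The genes most like Bhlha15 over the 10 tumors were named by the highest Pearson correlation of log2 CPM, as a description, since the 10 points share the difference between the groups. They were Eaf2 (r = 0.976), A230072E10Rik (0.972), Ighg3 (0.964), Hsh2d (0.960) and Igkv14-111 (0.958). Ighg3 and Igkv14-111 encode parts of antibodies. Among the members, Derl3 (0.933) and Creld2 (0.886) were closest, and Canx (-0.846) and Asns (-0.853) were farthest.

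Because Bhlha15 and Derl3 are known from plasma cells, the 47 genes were set against markers of plasma cells in each tumor. The plasma cell score was the mean log2 CPM of 9 markers that passed the filter, out of 11 (Jchain, Mzb1, Tnfrsf17, Irf4, Prdm1, Pou2af1, Fcrl5, Ighm, Igha, Ighg1 and Igkc). The summed level of the markers was 936 to 4550 CPM in sgCon tumors and 71.3 to 1067 CPM in sgTaz tumors. Igkc, the most abundant, was at 896, 1457, 1825, 386 and 1314 CPM in sgCon and at 9.67, 139, 273, 59.4 and 337 CPM in sgTaz tumors. Mzb1 was at 0 in 1 sgTaz tumor, Tnfrsf17 in 1 tumor of each group, and Fcrl5 in 2 sgCon and 4 sgTaz tumors. Of the 9 markers, 7 had log2 fold changes below 0. The 2 above it were Igha (0.58, standard error 0.70) and Prdm1 (0.20, standard error 0.15). With edgeR, 0 of the 9 markers passed the adjusted threshold (0.00675% of all genes). At an unadjusted p under 0.05 in edgeR, 6 were lower in sgTaz tumors (11.9% of all genes). DESeq2 called 4 lower (3.47% of all genes) and limma-voom 5 (5.8%).

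The score was 5.87, 6.38, 7.05, 4.73 and 6.43 in sgCon tumors and 1.59, 3.42, 4.91, 3.50 and 5.59 in sgTaz tumors, with overlapping groups. The marker list was written with results of these tumors known, so this difference is given without a test. As with Bhlha15 and Derl3, sgCon replicate 4 was the lowest of its group. The B cell score, made in the same way from 8 markers, put the tumors of each group in the same order. It was 4.159, 4.746, 6.863, 3.004 and 5.659 in sgCon tumors and -1.44, -1.435, 1.157, -0.822 and 4.788 in sgTaz tumors. The T cell and lymph node stroma scores had this order in the sgCon tumors only. Relations of the members to these other scores were not tested, and the order of the tumors does not tell plasma cells from B cells.

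Within groups, the relation to the score was tested for each of the 47 genes on deviations from the group means, with all 14400 exact permutations within groups and two-sided p-values. Derl3 had r = 0.906 over the 10 tumors (exact permutation p = 0.000764, Benjamini-Hochberg adjusted over 47 genes 0.0359). Its Spearman correlation was 0.939 (exact permutation p = 0.00125, adjusted 0.0588). Derl3 had r = 0.907 once the 2 tumors with scores farthest from the median of all 10 (sgTaz replicates 1 and 2) were dropped. From the mean of its group, sgTaz replicate 2 deviated by -0.38, and sgTaz replicate 5, which was kept, by 1.78. With each tumor left out in turn, r of Derl3 was 0.884 to 0.963, but the adjusted p rose above 0.05 when any of the sgCon tumors or sgTaz replicate 1 or 2 was dropped, up to 0.114 by exact permutation.

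Bhlha15 had r = 0.884 (exact permutation p = 0.00285, adjusted 0.0669) and a Spearman correlation of 0.891 (exact permutation p = 0.00347, adjusted 0.0816), and r was 0.986 without the 2 farthest tumors. Bhlha15 passed the filter through the sgCon tumors and had 2 to 12 counts in the sgTaz tumors, near the floor. Its correlations are therefore given as a description. Edem1 followed with r = 0.675 (exact permutation p = 0.00778, adjusted 0.122). By Pearson correlation, 12 of the 47 genes had an unadjusted p below 0.05 and 1, Derl3, an adjusted one, and by Spearman correlation 8 and 0. The relation was not tested over all genes, so these counts do not show whether the members differ from other genes. Atf4 (r = -0.777), Fkbp2 (-0.758), Pdia6 (-0.629) and Fkbp11 (-0.614) were among those with a negative sign, each with an adjusted exact permutation p of 0.165. Xbp1 had r = -0.214 (adjusted exact permutation p = 0.824). The other 5 members whose groups did not overlap had r = 0.012 (Creld2), 0.011 (Syvn1), -0.047 (Ddit3), -0.031 (Hyou1) and -0.624 (Asns), none with an adjusted exact permutation p below 0.05. Without the 2 farthest tumors these were 0.476 for Creld2, 0.671 for Syvn1, -0.085 for Ddit3, 0.040 for Hyou1 and -0.449 for Asns, so that the values near 0 of Creld2 and Syvn1 rest on those 2 tumors.

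Fold changes at equal plasma cell score came from a fit with the score as a covariate, added after seeing the data. Most sgTaz tumors scored below every sgCon tumor, so the fit cannot well separate the score from the group. The markers of the score were also chosen with results of these tumors known. The values are therefore a description, and whether plasma cells account for any change was not tested. The fold changes moved for some of these genes and not for others. The log2 fold change of Derl3 went from -1.86 to -0.35 and that of Bhlha15 from -2.77 to -1.46. Those of Creld2 (-0.55), Syvn1 (-0.52), Ddit3 (-0.49) and Hyou1 (0.24) were as large as without the score. Atf4 went from -0.34 to -0.62, Fkbp2 from -0.24 to -0.53 and Asns from 0.54 to 0.28. With edgeR, 0 of the 47 genes passed the adjusted threshold in this fit, and 12 had an unadjusted p under 0.05. The share of all genes in this fit is not given here, so the 12 cannot be set against it. Without the score, 16 members had such a p, beside 21.8% of all genes.

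**Figure D5:**
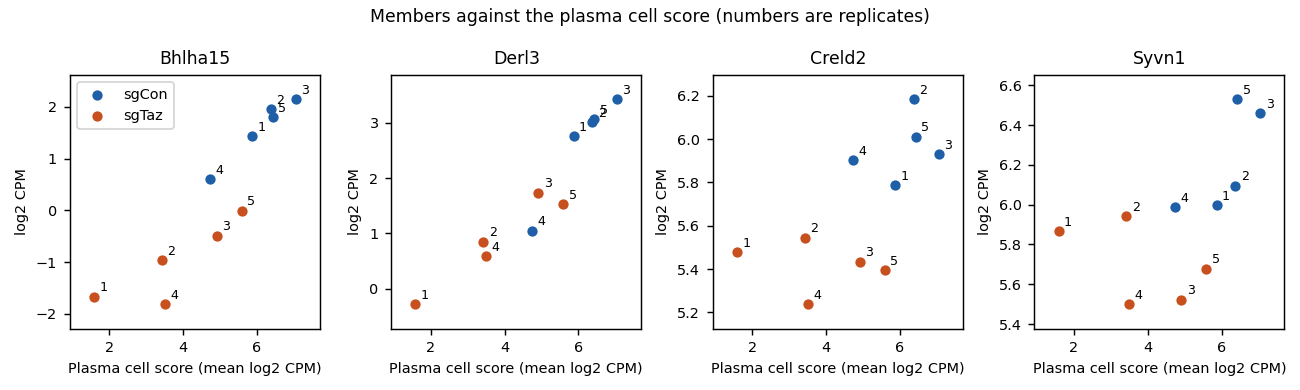
Log2 CPM of Bhlha15, Derl3, Creld2 and Syvn1 (y axes) against the plasma cell score, the mean log2 CPM of 9 markers (x axes), for each sgCon (blue) and sgTaz (orange) tumor, with replicate numbers. The within-group r is 0.884 for Bhlha15, which had 2 to 12 counts in the sgTaz tumors, and 0.906 for Derl3. It is 0.012 for Creld2 and 0.011 for Syvn1 over all 10 tumors, and 0.476 and 0.671 without sgTaz replicates 1 and 2. The B cell score puts the tumors of each group in the same order as the plasma cell score.

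Further genes of the same pathways, 105 tested of 109 named, gave the wider view. Their median log2 fold change was 0.004, with 55 above 0 and 50 below it. With edgeR, 0 passed the adjusted threshold, while 25 had an unadjusted p under 0.05 (14 higher and 11 lower, where 9.86% and 11.9% of all genes were). DESeq2 called 8 higher and 3 lower (3.28% and 3.47% of all genes), and limma-voom 9 and 5 (4.63% and 5.8%). Of 15 other folding genes, 4 were higher and 1 lower at the unadjusted threshold. Hspa13, an HSP70 relative of the ER, was at 84.8, 98.7, 71.7, 78.7 and 71.9 CPM in sgCon and at 107, 103, 106, 115 and 106 CPM in sgTaz tumors, without overlap (log2 fold change 0.40, standard error 0.091). Uggt1, which returns misfolded glycoproteins to Calr and Canx, was at a log2 fold change of 0.32 (standard error 0.092).

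Of 16 other degradation genes, 2 were higher and 3 lower at the unadjusted threshold, with Edem3 at 0.34 (standard error 0.12) and Tmub1 at -0.43 (standard error 0.14). Of 22 other genes of translocation and entry, 1 was higher and 3 were lower. Ssr4, a subunit of the translocon-associated complex, was at 95.0 to 106 CPM in sgCon and at 80.4 to 85.2 CPM in sgTaz tumors, without overlap (log2 fold change -0.26, standard error 0.057). Sec11c, a catalytic subunit of the signal peptidase, was at 60.3 to 148 and 53.4 to 68.6 CPM (log2 fold change -0.66, standard error 0.21).

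Of 11 other genes of the ATF6 and IRE1 arms, 1 was higher and 1 lower, namely Wfs1 (log2 fold change 0.33, standard error 0.097), an ER membrane protein, and Creb3 (-0.20, standard error 0.083). Of 26 other ATF4 genes, 4 were higher and 2 lower, with a median of 0.15. Slc7a1, a carrier of cationic amino acids, was at 70.5 to 87.1 CPM in sgCon and 81.9 to 103 CPM in sgTaz tumors (log2 fold change 0.27, standard error 0.080). Ddit4, an inhibitor of mTORC1, was at 182 to 322 and 147 to 189 CPM (log2 fold change -0.48, standard error 0.14). The cytosolic heat shock genes, which HSF1 and not the ER sensors controls, had a median of -0.019 over 15 genes, with 2 higher and 1 lower at the unadjusted threshold. Hspa4 and Hspa4l, nucleotide exchange factors of cytosolic HSP70, had log2 fold changes of 0.20 (standard error 0.064) and 0.33 (standard error 0.14).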

How the data were processed

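The authors mapped reads with STAR in 2-pass mode to mm10 with GENCODE annotation, counted reads per gene with featureCounts and deposited raw counts, whole numbers without normalization, for 17864 genes. The strand setting and tool versions are not given in the sources used here. Further columns, 5 in number, were not used. Of the identifiers, 17860 were found in GENCODE M21, the source of names and exon lengths.

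Counts were tested in R 4.3.3 with edgeR 4.0.16 (TMM, filterByExpr, glmQLFit, glmQLFTest, Benjamini-Hochberg adjusted p below 0.05), which kept 14816 genes. DESeq2 1.42.0, limma 3.58.1 (voom), RLE normalization, other filters, each tumor left out, the replicate number as a block and a correction for GC content and length were alternatives. Figures and permutation tests used Python 3.11.15 with scipy 1.17.1. CPM are TMM-normalized, and log2 CPM use a prior count of 2. Scripts were tested on simulated data.

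The members and lists were chosen with earlier results of these data known. Named with values for each tumor were 12 genes fixed by name (Hspa5, Xbp1, Atf4, Ddit3, Bhlha15, Creld2, Derl3, Sdf2l1, Fkbp11, Herpud1, Trib3 and Chac1), members without overlap between groups and the member of each role with the greatest change. Of each pathway list the 2 genes of smallest p were named, of each cell type list the most abundant gene, and 5 genes closest to Bhlha15. Further names, among them the other members, were chosen after their values were seen. p-values set a difference or relation against the spread between these tumors, and floors cover counting error only.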

Additional observations from a re-analysis of the deposited data

Results flagged for a closer look

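The lymph node stroma score, the mean log2 CPM of 3 markers that passed the filter, was 6.16 in sgTaz replicate 5, far above the other sgTaz tumors, which were between -1.63 and 0.42. Of 64 groups of 5 tumors examined for such a distance, chance gives 3.2, and this was the 1 found. Glycam1, the most abundant marker of this list, was at 237 CPM in that tumor, at 0 in 3 sgTaz tumors and at 0.243 CPM in another, and at 19.3 to 298 CPM in sgCon tumors. The same tumor had the highest Bhlha15 level (0.873 CPM) and plasma cell score (5.59) of its group. The part of lymph node tissue in the levels of the members was not tested. Without this tumor, Bhlha15 had a log2 fold change of -3.13.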

How the results depend on the processing

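Of the 47 members, 0 passed the adjusted threshold with edgeR, 9 with DESeq2 and 10 with limma-voom. Leaving out a tumor at a time gave 0 to 2: Creld2 without sgTaz replicate 2, and Creld2 and Bhlha15 without sgTaz replicate 5. The members' median log2 fold change of -0.024 was 0.070 after correcting for length and GC content and 0.085 with that correction and the replicate block. It was -0.051 to 0.010 with each tumor left out, above 0 without sgCon replicate 4. The correction moved the median of all genes from -0.019 to 0.041. Of the pathway genes, 0 passed with edgeR, 11 with DESeq2 and 14 with limma-voom. Of the cell type markers, 0 passed with edgeR, 15 with DESeq2 and 26 with limma-voom, and 0 to 10 with each tumor left out (1 without sgTaz replicate 2 and 10 without sgTaz replicate 5). The relation to the plasma cell score, tested for the members only, passed for 1 member, for 2 with the summed CPM of the markers and for 0 to 2 with each tumor left out. Of the named members, Fkbp11 and Sdf2l1 changed sign under some alternatives. The cause of these differences was not tested.

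Correlations of tumors with the same replicate number were -0.15, -0.24, -0.049, 0.093 and 0.22, and replicate 5 alone correlated best with its own number. These values cannot show whether tumors of a number were handled together, and the labels do not say. With the replicate block, 0 members, 0 pathway genes and 0 cell type markers passed in edgeR, and 11, 18 and 35 had an unadjusted p under 0.05. The share of all genes with this block, or with a tumor left out, is not given here, so these counts have no background beside them. Depth limits Bhlha15 most, with 34 counts over the 5 sgTaz tumors.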

Other observations

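Other cell types of the tumors also differed, and these lists stand beside the members because whole tumors were sequenced. All 7 macrophage markers had log2 fold changes above 0, 5 of them at an unadjusted p below 0.05, and their summed level was 746 to 1765 CPM in sgCon and 1458 to 2054 CPM in sgTaz tumors. C1qa, the most abundant, was at 220 to 608 and 429 to 562 CPM. All 8 B cell markers had fold changes below 0, 6 at the unadjusted threshold, with a summed level of 70.8 to 953 CPM in sgCon and 7.36 to 224 CPM in sgTaz tumors, and Cd79a was at 17.2 to 166 and 0.191 to 32.2 CPM. All 6 T cell markers were below 0, 5 at the unadjusted threshold (97.8 to 642 against 76.9 to 200.2 CPM), although Cd8a was at 38.1 to 124 and 35.0 to 66.4 CPM. Neutrophil markers were below 0 in 4 of 4, 3 at the unadjusted threshold (164 to 667 against 65.1 to 246 CPM), with S100a9 at 77.8 to 356 and 23.6 to 123 CPM. Lymph node stroma markers were below 0 in 3 of 3, with 0 at the unadjusted threshold.

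Epithelial markers were below 0 in 7 of 7, 4 at the unadjusted threshold, with Krt8 at 749 to 1383 CPM in sgCon and 619 to 886 CPM in sgTaz tumors. Of 5 fibroblast markers, 1 was higher at the unadjusted threshold, and Col1a1 was at 490 to 1636 and 469 to 1182 CPM. Of 4 endothelial markers 0 passed that threshold, and Pecam1 was at 158 to 210.0 and 132 to 256 CPM. Of 5 adipocyte markers 0 passed, with Fabp4 at 48.7 to 83.3 and 34.4 to 151 CPM. Of 3 muscle markers 1 was lower, with Tnnt3 at 6.92 to 10.7 and 5.89 to 30.3 CPM. Csn3, the casein that passed the filter, was at 1.78 to 7.67 and 1.16 to 10.02 CPM. With edgeR, 0 of the 62 markers tested passed the adjusted threshold, while 31 had an unadjusted p under 0.05 (21.8% of all genes).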
